A study of Mus musculus with 9 samples.

Results

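Aminoacyl-tRNA synthetases are the enzymes that attach each amino acid to its transfer RNA. The 36 genes described here are the 20 cytosolic and 16 mitochondrial synthetase genes named by symbol, out of 24421 gene symbols in an RNA-seq table of mouse colon epithelium, and all 36 symbols were found. They were chosen by name, not by a measured value, but with earlier results of these data known. The study sorted 3 populations by flow cytometry from the colonic crypts of adult female C57BL/6J mice, with 3 replicates each, every replicate of a population from a separate mouse and 3 mice in all according to the series text. Epcam+, Cd44+, Kit-negative cells are labelled as enriched in Lgr5+ cells, which are the stem and columnar cells of the crypt bottom (the Lgr5-enriched population). Epcam+, Cd44+, Kit+ cells are labelled as enriched in goblet cells of the bottom crypt, which make mucus (the goblet-enriched population). Epcam+, Cd44-negative, Cd66a-high cells are labelled as enriched in enterocytes of the top crypt, the absorptive cells (the enterocyte-enriched population). The mice carried no transgene or treatment according to the labels, and cells with Cd3, Cd16/Cd32, Cd31 or Cd45 had been gated out of every sort.

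Cytosolic synthetases load the transfer RNAs that nuclear-encoded proteins are made with. The mitochondrial enzymes serve the small set of proteins made inside mitochondria. Genes are counted here as mitochondrial where the symbol ends in 2 and as cytosolic otherwise. A gene that serves both compartments, such as Gars and Kars, is therefore counted as cytosolic only. Cytosolic synthetases fall into 2 structural classes, and 8 of the genes here encode the synthetases of the multisynthetase complex, an assembly held together by 3 scaffold proteins. Many cytosolic synthetase genes are known targets of ATF4, a transcription factor whose translation rises when amino acids run short or when the endoplasmic reticulum is stressed, while Wars is also known as an interferon-induced gene. Goblet cells are secretory cells with a large endoplasmic reticulum.

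Levels are in TPM, a relative transcript abundance in which reads are divided by transcript length and every library is brought to the same total, so that genes can be compared with each other within a library. The reads assigned to genes, recovered from the steps of the TPM values, came to about 26800000 in Lgr5-enriched replicate 1 and to about 11200000 to 16000000 in the other libraries, and a transcript of 1 kb gained 0.0958 to 0.208 TPM with each read. Differences were tested with limma on log2(TPM + 1) over 12888 genes, and a gene was called where its Benjamini-Hochberg adjusted p was under 0.05. Every fold change below on the log2 scale is on that scale, with its standard error (SE), and n = 3 libraries in each population. Because of that fixed total, abundant transcripts take room from other genes. How far the mucus and colonocyte transcripts did so was not tested. The median log2 fold change over all genes tested was -0.26 for goblet against Lgr5, -0.35 for enterocyte against Lgr5 and 0.20 for goblet against enterocyte, and it moved to -0.05, 0.02 and 0.04 after median-of-ratios scaling. The share of all called genes that were called higher moved with it, from 31.3% to 54.3% for goblet against Lgr5, from 24.2% to 54.5% for enterocyte against Lgr5 and from 63.9% to 48.1% for goblet against enterocyte. In bulk samples, fewer cells of a type and less RNA per cell cannot be told apart.

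Summed markers of each labelled cell type were highest in the matching sort, but no sort was free of the markers of the others. Summed goblet markers, such as Muc2 and Clca1, were at 1663 to 1825 TPM in the Lgr5-enriched, 49758 to 69150 TPM in the goblet-enriched and 15676 to 23708 TPM in the enterocyte-enriched libraries. Of these 12 markers 7 were called higher and 2, Tff3 and Zg16, lower in goblet than in enterocyte. Over all genes tested 28.2% were called higher and 15.9% lower there. Without the library labelled enterocyte-enriched replicate 1, 7 were called higher and 1 lower, against 22.0% and 13.2% of all genes. Summed colonocyte markers were at 570 to 925, 588 to 1178 and 6848 to 13895 TPM, and summed stem cell markers at 1425 to 1623, 706 to 804 and 191 to 311 TPM. Enteroendocrine markers summed to 157 to 298, 13.2 to 79.7 and 149 to 240 TPM in the same order of populations. Tuft cell markers summed to 4.5 to 5.9, 8.5 to 57.1 and 5.1 to 7.7 TPM. The part of these other cell types in the synthetase differences was not tested. Leukocyte markers summed to at most 13.4 TPM in the Lgr5-enriched and 11.8 TPM in the goblet-enriched libraries and to 13.4 to 234 TPM in the enterocyte-enriched ones, where nearly all of it was Lyz2, and 1 of the 10, Nkg7, was listed at 0 in all libraries. Stromal and endothelial markers summed to between 1.0 and 9.3 TPM. The library labelled enterocyte-enriched replicate 1 goes against its female label: Xist, which is made from the inactive X chromosome, stood at 0.13 TPM there and at 110 to 204 TPM in the other 8 libraries. Counts of calls that involve the enterocyte-enriched population are therefore given with and without it, below as without enterocyte replicate 1. Lgr5-enriched replicate 1 also stands apart, with 11.15% of its recovered reads on the pre-ribosomal RNA Rn45s against 0.56% to 1.52% in the others.

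All 36 synthetase genes passed the filter of 1 TPM in at least 3 libraries. Averaged over the 9 libraries, the most abundant cytosolic synthetases were Wars (tryptophan) at 257 TPM, Nars (asparagine) at 219 TPM and Kars (lysine) at 208 TPM. The least abundant were Cars (cysteine) at 34.5 TPM, Mars (methionine) at 46.8 TPM and Farsa (the alpha subunit for phenylalanine) at 50.04 TPM. Of the mitochondrial synthetases Lars2 (leucine) stood far above the rest at 1423 TPM, followed by Iars2 (isoleucine) at 103 TPM and Rars2 (arginine) at 61.0 TPM. The lowest were Pars2 (proline) at 4.34 TPM, Ears2 (glutamate) at 8.60 TPM and Mars2 (methionine) at 10.4 TPM. Even Pars2 rested on 36 to 137 reads a library, so that no member was near the limit of detection.

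In the goblet-enriched population 4 cytosolic synthetases were higher than in the Lgr5-enriched population, Wars, Tars, Aars and Cars, and 4 were lower, Kars, Qars, Farsb and Farsa, while 12 of the 20 did not pass the test. Over all genes tested, 10.7% were called higher and 23.6% lower in this comparison. The cytosolic genes had a median log2 fold change of -0.15, against -0.26 over all genes, and after median-of-ratios scaling that median was 0.07. With the replicate number as a block, 7 in place of 4 were called lower, against 35.4% of all genes called lower under that block. The plot of fold changes shows the 4 higher genes apart from the other 16.

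**Figure D1:**
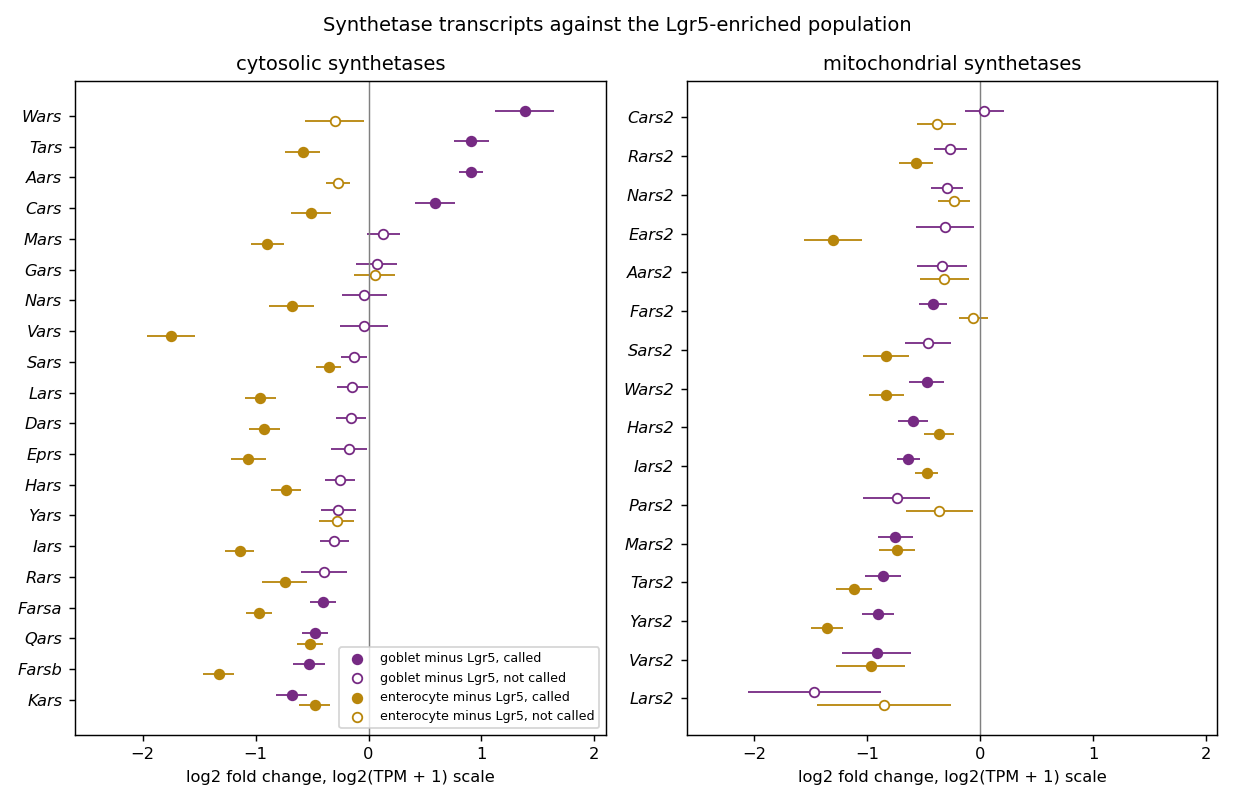
Log2 fold change (x axis, log2(TPM + 1) scale) of each of the 20 cytosolic (left) and 16 mitochondrial (right) synthetase genes in the goblet-enriched (purple) and enterocyte-enriched (gold) populations against the Lgr5-enriched population. Points are limma estimates from 3 libraries a population, bars are SE, and filled points were called. Wars, Tars, Aars and Cars are the only filled points to the right of 0 at this scaling. With median-of-ratios scaling, 2 of the filled points, the enterocyte estimates of Sars and Hars2, cross 0.

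Wars encodes the tryptophanyl-tRNA synthetase (chromosome 12, 108860030 to 108894174, minus strand, mm10). It was measured at 224, 131 and 169 TPM in the Lgr5-enriched replicates 1 to 3, at 579.9, 354 and 435 TPM in the goblet-enriched replicates and at 163, 103 and 159 TPM in the enterocyte-enriched replicates. All 3 goblet-enriched libraries were above all 6 others, and replicate 2 was the lowest library in every population. The mean was 2.61-fold higher in goblet than in Lgr5 (a log2 fold change of 1.38 with an SE of 0.26, limma adjusted p = 0.00426), and no alternative setting ended that call. Enterocyte and Lgr5 libraries overlapped, and the log2 fold change of -0.30 did not pass the test (limma adjusted p = 0.366), although it did with the replicate number as a block (limma adjusted p = 0.0384).

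Tars encodes the threonyl-tRNA synthetase (chromosome 15, 11382301 to 11399665, minus strand). Threonine is a main building block of the mucin domains that goblet cells secrete. Its levels were 143, 112 and 123 TPM in Lgr5, 280.3, 224 and 210.2 TPM in goblet and 73.1, 83.9 and 94.4 TPM in enterocyte libraries. The 3 populations did not overlap, with goblet highest and enterocyte lowest. Goblet was 1.89-fold above Lgr5 (a log2 fold change of 0.91 with an SE of 0.16, limma adjusted p = 0.00266), a call that every alternative kept. Enterocyte was below Lgr5 by a log2 fold change of -0.58 (limma adjusted p = 0.0129), and with median-of-ratios scaling that value was -0.17 and lost the call (limma adjusted p = 0.427).

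Aars encodes the alanyl-tRNA synthetase (chromosome 8, 111033144 to 111057664, plus strand). It stood at 77.0, 68.1 and 68.2 TPM in Lgr5, 142, 129 and 131 TPM in goblet and 56.4, 59.5 and 60.0 TPM in enterocyte libraries. Its replicates were the tightest of the 4, and the populations did not overlap. Goblet was 1.89-fold above Lgr5 (a log2 fold change of 0.91 with an SE of 0.11, limma adjusted p = 0.000344). Against Lgr5, the enterocyte value of -0.27 missed the threshold (limma adjusted p = 0.0563) and passed it with the replicate number as a block (limma adjusted p = 0.0348). Aars shares 1326 exon bases on the same strand with Exosc6, whose mean level was 53.7 TPM in Lgr5, 26.2 TPM in goblet and 49.9 TPM in enterocyte, so reads from that stretch could have been counted for either gene.

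Cars encodes the cysteinyl-tRNA synthetase (chromosome 7, 143557230 to 143600090, minus strand). Cysteine forms the disulfide bonds that join mucin chains. Its levels were 39.7, 25.5 and 32.3 TPM in Lgr5, 54.0, 43.0 and 49.6 TPM in goblet and 24.7, 19.9 and 22.1 TPM in enterocyte libraries. The populations did not overlap, although the lowest goblet library was only slightly above the highest Lgr5 library. The log2 fold change in goblet against Lgr5 was 0.59 (SE 0.18, limma adjusted p = 0.031). This call ended without Lgr5-enriched replicate 2 (0.0994), Lgr5-enriched replicate 3 (0.0822), goblet-enriched replicate 1 (0.0785) or goblet-enriched replicate 3 (0.0784), each value being a limma adjusted p.

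**Figure D2:**
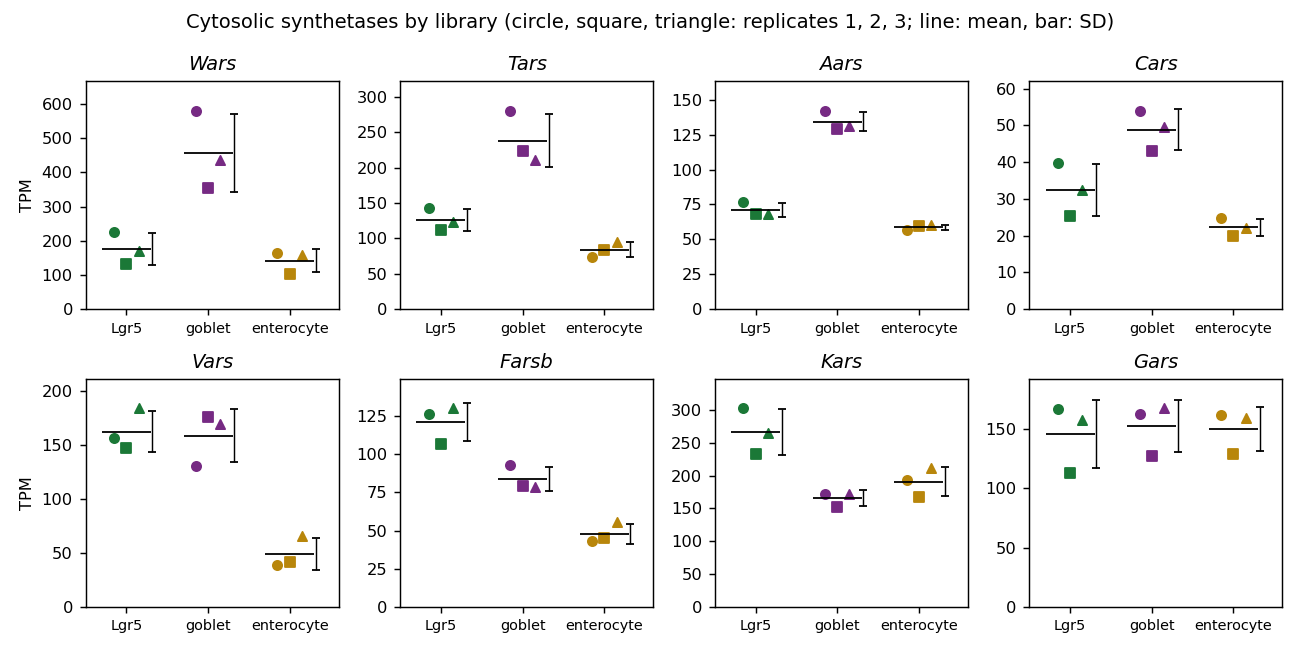
TPM (y axis, from 0) by library for 8 cytosolic synthetases in the 3 populations. Circles, squares and triangles are replicates 1, 2 and 3, horizontal lines are means and bars are SD (n = 3). Wars, Tars, Aars and Cars have all goblet-enriched libraries on top, Vars and Farsb have all enterocyte-enriched libraries at the bottom, Kars is highest in Lgr5-enriched libraries, and Gars lies in one range throughout.

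The promoters of Aars and Tars, 2 of the 4 higher genes, hold the letters TGATGNAA, the core of the composite element that ATF4 binds with a C/EBP partner. RefSeq windows (GRCm38.p6, the assembly of mm10) were at hand for 27 of the 36 members, 13 cytosolic and 14 mitochondrial, and each ran from 250 bases before to 50 after the start. TGATGNAA, searched on both strands, occurred in 5 of the 27, Aars, Gars, Iars, Tars and Yars, all of them cytosolic, against 3.97% of 32851 windows of the table and 2.2% of the 9643 windows of genes tested here. The 5 windows are shown because they carry this element, 150 bases before to 25 after the start, 5′ to 3′ on the gene's strand, with the matches in capitals, which read TTGCATCA or TTTCATCA where the element lies on the other strand.
Aars, chr8:111033692-111033866, plus strand: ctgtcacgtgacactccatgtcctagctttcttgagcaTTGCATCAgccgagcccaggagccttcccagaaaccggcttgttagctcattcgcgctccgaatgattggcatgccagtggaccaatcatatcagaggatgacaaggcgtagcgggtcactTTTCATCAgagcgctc
Tars, chr15:11399634-11399808, minus strand: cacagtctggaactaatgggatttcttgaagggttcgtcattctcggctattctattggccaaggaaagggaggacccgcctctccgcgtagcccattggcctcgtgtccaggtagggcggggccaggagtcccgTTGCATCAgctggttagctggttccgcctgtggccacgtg
Gars, chr6:55037851-55038025, plus strand: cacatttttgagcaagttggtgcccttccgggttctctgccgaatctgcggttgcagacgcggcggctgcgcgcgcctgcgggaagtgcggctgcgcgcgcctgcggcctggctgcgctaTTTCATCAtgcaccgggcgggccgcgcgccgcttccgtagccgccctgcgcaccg
Iars, chr13:49681980-49682154, plus strand: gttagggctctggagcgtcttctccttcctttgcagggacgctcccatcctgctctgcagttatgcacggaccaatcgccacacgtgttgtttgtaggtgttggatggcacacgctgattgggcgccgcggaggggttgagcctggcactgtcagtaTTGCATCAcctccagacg
Yars, chr4:129189753-129189927, plus strand: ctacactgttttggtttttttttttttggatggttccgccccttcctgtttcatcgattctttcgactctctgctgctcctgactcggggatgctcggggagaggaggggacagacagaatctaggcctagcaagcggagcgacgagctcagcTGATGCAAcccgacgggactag

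Of these 5 genes, Aars and Tars were called higher in goblet against Lgr5, and Gars (0.07), Iars (-0.30) and Yars (-0.27) were not, the values being log2 fold changes. Iars and Yars were called lower there with the replicate number as a block (limma adjusted p = 0.0258 and 0.0369). A match of letters is a description and not evidence of binding, and no window was at hand for Wars or Cars. Other motifs were searched in the same 27 windows on both strands. The E-box CACGTG occurred in 5 (7.15% of all windows, 10.3% of those of tested genes), the NRF1 element in 5, Farsb, Kars, Tars, Iars2 and Mars2 (4.6% and 10.5%), the CCAAT box in 13 (37.4% and 39.0%) and the TATA box TATAAA in 3 (13.6% and 7.23%). Several members share a start region with another gene on the opposite strand: the starts of Hars and Hars2 are 197 bases apart, those of Rars2 and Orc3 13, of Yars and S100pbp 33 and of Kars and Terf2ip 75.

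The 4 cytosolic genes called lower in goblet against Lgr5 had log2 fold changes between -0.68 and -0.40. Kars, the lysyl-tRNA synthetase, was at 303, 234 and 264 TPM in Lgr5, 172, 152 and 172 TPM in goblet and 193, 168 and 212 TPM in enterocyte libraries. All Lgr5 libraries were above all others, and goblet and enterocyte libraries overlapped. Qars (glutamine) was at 224, 245 and 240.2 TPM in Lgr5, 164, 175 and 170.4 TPM in goblet and 146, 169 and 179.6 TPM in enterocyte libraries, with the same order. The log2 fold changes in goblet against Lgr5 were -0.68 for Kars (SE 0.14, limma adjusted p = 0.00587) and -0.47 for Qars (SE 0.11, limma adjusted p = 0.0116). Farsa and Farsb encode the alpha and beta subunits of one enzyme, the phenylalanyl-tRNA synthetase, and fell by 0.40 and 0.53 on the log2 scale (limma adjusted p = 0.0261 and 0.0193). None of these 4 calls held with median-of-ratios scaling, where the limma adjusted p was 0.059 for Kars, 0.0813 for Qars, 0.276 for Farsa and 0.142 for Farsb. Leaving out Lgr5-enriched replicate 3 reduced the count of 4 to 2, and so did leaving out goblet-enriched replicate 2. Over all genes the count called lower also fell, from 3039 of 12888 to 1557 of 12757 and 2071 of 12750.

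In the enterocyte-enriched population 16 of the 20 cytosolic synthetases were called lower than in the Lgr5-enriched population and 0 higher, the 4 that were not called being Aars, Gars, Wars and Yars. Over all genes tested 37.6% were called lower and 12.0% higher, and the cytosolic median was -0.71 against -0.35 over all genes. Without the library labelled enterocyte-enriched replicate 1, 15 were called lower, against 31.5% of all genes. With median-of-ratios scaling 8 were called lower, against 19.7% of all genes: Dars (aspartate), Eprs (glutamate and proline), Farsa, Farsb, Iars (isoleucine), Lars (leucine), Mars (methionine) and Vars (valine).

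Vars had the largest decrease of the 36 genes in this comparison (chromosome 17, 35000987 to 35016322, plus strand). It was at 157, 147 and 184 TPM in Lgr5, 131, 176 and 169.6 TPM in goblet and 39.3, 41.4 and 66.1 TPM in enterocyte libraries. Lgr5 and goblet libraries overlapped, and all enterocyte libraries lay far below both. The mean was 3.33-fold lower in enterocyte than in Lgr5 (a log2 fold change of -1.75 with an SE of 0.21, limma adjusted p = 0.00033), and the goblet value of -0.04 did not pass the test (limma adjusted p = 0.897). No alternative setting ended the enterocyte call.

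Farsb followed among the cytosolic genes, at 127, 107 and 130.1 TPM in Lgr5, 93.0, 79.3 and 78.9 TPM in goblet and 43.0, 44.9 and 55.6 TPM in enterocyte libraries. Its partner Farsa was at 67.7, 62.3 and 69.7 TPM, then 45.8, 50.1 and 54.4 TPM, then 31.5, 33.6 and 35.2 TPM in the same order of populations. In both subunits the 3 populations did not overlap and stood in the order Lgr5, goblet, enterocyte. The enterocyte log2 fold changes were -1.33 for Farsb and -0.97 for Farsa (limma adjusted p = 0.00024 and 0.000327), and neither call was lost under any alternative. Farsb overlaps Sgpp2 on the opposite strand over 248 exon bases, and the strand setting used for counting is not given in the sources used here.

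Iars and Eprs, both enzymes of the multisynthetase complex, had the next largest cytosolic decreases. Iars was at 83.2, 80.2 and 102 TPM in Lgr5, 70.6, 68.3 and 74.8 TPM in goblet and 38.1, 37.1 and 43.1 TPM in enterocyte libraries. Eprs, which carries the enzymes for glutamate and proline in one protein, was at 161, 148 and 148 TPM in Lgr5, 156, 129 and 122 TPM in goblet and 58.0, 78.9 and 82.9 TPM in enterocyte libraries. Every enterocyte library was below every other library for both genes. The log2 fold changes against Lgr5 were -1.14 for Iars and -1.06 for Eprs (limma adjusted p = 0.000271 and 0.000735).

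The calls of 4 genes in this comparison depended on single libraries. Cars (log2 fold change -0.51) lost its call without Lgr5-enriched replicate 1 or 3, goblet-enriched replicate 3, or enterocyte-enriched replicate 2 or 3 (limma adjusted p from 0.0547 to 0.118). Kars (-0.48) lost it without Lgr5-enriched replicate 1 (0.0546) or 3 (0.0525) or enterocyte-enriched replicate 2 (0.0709). Nars (-0.68) lost it without Lgr5-enriched replicate 1 (0.0612) or enterocyte-enriched replicate 2 (0.0592). Sars (serine, -0.35) lost it without Lgr5-enriched replicate 2 (0.0715) or 3 (0.0831) or enterocyte-enriched replicate 1 (0.0894) or 2 (0.0566), all values being limma adjusted p. The remaining 12 of the 16 calls held without any single library.

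Gars, the glycyl-tRNA synthetase, was the member with the least difference between populations. It was at 167, 113 and 158 TPM in Lgr5, 162, 127 and 167 TPM in goblet and 162, 129 and 159.6 TPM in enterocyte libraries. The populations overlapped fully, replicate 2 was the lowest in each, and the log2 fold changes were 0.07 in goblet and 0.05 in enterocyte against Lgr5 (SE 0.18 for both, limma adjusted p = 0.788 and 0.824). Yars (tyrosine) was not called either, with -0.27 in goblet and -0.28 in enterocyte (SE 0.15 for both), but with the replicate number as a block it was called lower in both (limma adjusted p = 0.0369 and 0.026).

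Set directly against the enterocyte-enriched population, the goblet-enriched population had 14 of the 20 cytosolic synthetases called higher and 0 lower. The 6 not called were Gars, Kars, Qars, Rars (arginine), Sars and Yars. Over all genes tested 28.2% were called higher and 15.9% lower, and the cytosolic median was 0.78 against 0.20 over all genes, or 0.60 after median-of-ratios scaling. Without the library labelled enterocyte-enriched replicate 1, 13 were called higher, against 22.0% of all genes. The largest differences were in Vars (log2 fold change 1.71, limma adjusted p = 0.000296), Wars (1.68, 0.00103), Tars (1.49, 0.000136), Aars (1.18, 7.01e-05) and Cars (1.10, 0.00129). Vars was called in this comparison and in enterocyte against Lgr5 but not in goblet against Lgr5, while Wars and Aars were called where goblet was compared and not in enterocyte against Lgr5. The Nars call (0.64) ended without goblet-enriched replicate 1 (limma adjusted p = 0.0704) or without enterocyte-enriched replicate 1 (0.0634), 2 (0.0801) or 3 (0.052), and the Hars call (0.49) ended without enterocyte-enriched replicate 2 (0.057).

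The 8 synthetases of the multisynthetase complex, Dars, Eprs, Iars, Kars, Lars, Mars, Qars and Rars, are bound together in the cytosol. In goblet against Lgr5, 0 of the 8 were called higher and 2 lower, Kars and Qars, and of the 12 other cytosolic genes 4 were called higher and 2 lower. In enterocyte against Lgr5 all 8 were called lower, and 8 of the other 12, against 37.6% of all genes. Without enterocyte replicate 1 these counts were 8 and 7, against 31.5% of all genes. With median-of-ratios scaling they were 5 and 3, against 19.7% of all genes. With that scaling 0 of either group were called lower in goblet, against 12.0% of all genes. In enterocyte against Lgr5 the medians without that scaling were -0.91 in the complex and -0.55 outside it. This difference between the groups was not tested. The scaffold genes Aimp1, Aimp2 and Eef1e1 were called lower in enterocyte in 3 of 3, also without enterocyte replicate 1 and with median-of-ratios scaling, and in goblet in 2 of 3, or 1 of 3 with that scaling. Aimp2, which links the complex together, was at 66.5, 62.5 and 63.5 TPM in Lgr5, 34.2, 30.4 and 41.2 TPM in goblet and 31.8, 36.6 and 36.3 TPM in enterocyte libraries, with all Lgr5 libraries above the rest (its log2 fold change was -0.86 both in goblet, at a limma adjusted p = 0.00184, and in enterocyte, at 0.00101). Class I and class II enzymes differ in how they bind the end of the transfer RNA, and members of both moved: in goblet, 2 of 9 class I genes were called higher and 1 lower, and 2 of 10 class II genes higher and 3 lower, against 10.7% of all genes called higher and 23.6% lower. In enterocyte 7 of 9 and 8 of 10 were called lower, and 7 and 7 without enterocyte replicate 1, against 37.6% and 31.5% of all genes. With median-of-ratios scaling 0 of either class were called lower in goblet, where 12.0% of all genes were. In enterocyte 4 of 9 and 3 of 10 were called lower with that scaling, against 19.7% of all genes.

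Summed over the 20 genes, the cytosolic synthetases took 2756, 2266 and 2567 TPM in the Lgr5, 2974, 2413 and 2595 TPM in the goblet and 1556, 1503 and 1755 TPM in the enterocyte libraries. Goblet and Lgr5 libraries overlapped, and all enterocyte libraries were lower. What differed between goblet and Lgr5 was the make-up of the sum. Aars, Cars, Tars and Wars together held 15.9% ± 1.4 (SD, n = 3) of it in Lgr5, 32.8% ± 2.4 in goblet and 19.1% ± 1.3 in enterocyte libraries. These 4 were the genes called higher in goblet, so this share is a description of them and no further test. Wars alone held 6.8% of the cytosolic sum in Lgr5, 17.0% in goblet and 8.8% in enterocyte libraries.

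**Figure D3:**
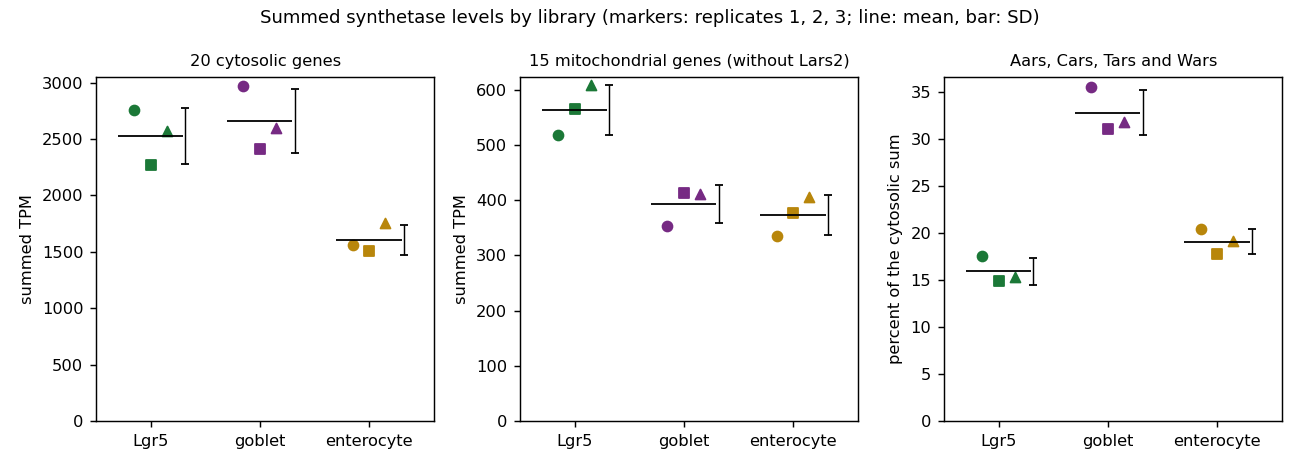
Summed TPM by library of the 20 cytosolic genes (left) and of 15 mitochondrial genes without Lars2 (middle), and the percent of the cytosolic sum held by Aars, Cars, Tars and Wars (right). Circles, squares and triangles are replicates 1, 2 and 3, lines are means and bars SD (n = 3). Enterocyte-enriched libraries have the lowest cytosolic sums, Lgr5-enriched libraries have the highest mitochondrial sums, and the share of the 4 genes is 31.1% to 35.5% in goblet-enriched and 14.9% to 20.4% in the other libraries.

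The number of mitochondrial synthetases called lower in each differentiated population than in the Lgr5-enriched population depended on the scaling. In goblet against Lgr5, 8 of the 16 were called lower and 0 higher: Fars2, Hars2, Iars2, Mars2, Tars2, Vars2, Wars2 and Yars2, where 23.6% of all genes were called lower. In enterocyte against Lgr5, 10 were called lower and 0 higher: Ears2, Hars2, Iars2, Mars2, Rars2, Sars2, Tars2, Vars2, Wars2 and Yars2, where 37.6% of all genes were called lower. The medians were -0.53 in goblet and -0.65 in enterocyte, and -0.32 and -0.26 after median-of-ratios scaling. With that scaling 5 were called lower in goblet (Hars2, Iars2, Mars2, Tars2 and Yars2), against 12.0% of all genes, and 4 in enterocyte (Ears2, Tars2, Wars2 and Yars2), against 19.7% of all genes, while Fars2 was called higher in enterocyte. Without the library labelled enterocyte-enriched replicate 1 the count in enterocyte was 8, against 31.5% of all genes. The count of 8 in goblet was 5 without Lgr5-enriched replicate 2, Lgr5-enriched replicate 3, goblet-enriched replicate 1 or goblet-enriched replicate 2. Over all genes 2150 of 12748, 1557 of 12757, 2683 of 12760 and 2071 of 12750 were called lower in these fits. In the main fit 3039 of 12888 were. All 12 genes whose goblet libraries lay entirely on one side of the Lgr5 libraries were lower, while 33.9% of all genes tested were entirely lower in that comparison.

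Yars2, the mitochondrial tyrosyl-tRNA synthetase (chromosome 16, 16302965 to 16309640, plus strand), was at 49.1, 39.5 and 42.2 TPM in Lgr5, 23.6, 22.7 and 21.8 TPM in goblet and 14.2, 17.7 and 17.5 TPM in enterocyte libraries. The populations did not overlap. Its log2 fold change was -0.91 in goblet (SE 0.14, limma adjusted p = 0.00171) and -1.35 in enterocyte (limma adjusted p = 0.00023), and no alternative ended either call. Its cytosolic counterpart Yars was called in neither.

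Tars2, the mitochondrial threonyl-tRNA synthetase (chromosome 3, 95739976 to 95760206, minus strand), was at 35.9, 33.5 and 39.1 TPM in Lgr5, 16.2, 21.0 and 21.5 TPM in goblet and 14.1, 16.2 and 18.1 TPM in enterocyte libraries. All Lgr5 libraries were above the rest, and goblet and enterocyte overlapped. The log2 fold change was -0.86 in goblet (SE 0.16, limma adjusted p = 0.00366) and -1.12 in enterocyte (limma adjusted p = 0.000609), so that in goblet the mitochondrial gene was lower where its cytosolic counterpart Tars was higher.

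Iars2, the most abundant mitochondrial synthetase after Lars2, was at 124, 134 and 134 TPM in Lgr5, 80.5, 85.6 and 85.1 TPM in goblet and 88.1, 94.4 and 99.4 TPM in enterocyte libraries, with goblet lowest and no overlap (goblet against Lgr5 -0.64 on the log2 scale, SE 0.10, limma adjusted p = 0.00184). Its exons overlap those of Rab3gap2 on the opposite strand over 2034 bases. Ears2, for glutamate, was low everywhere, at 9.9, 11.2 and 14.9 TPM in Lgr5, 7.5, 9.8 and 10.9 TPM in goblet and 2.9, 4.0 and 6.2 TPM in enterocyte libraries. Its Lgr5 and goblet libraries overlapped and its enterocyte libraries were the lowest (enterocyte against Lgr5 -1.30, limma adjusted p = 0.00299). Vars2, for valine, was at 26.2, 36.8 and 43.6 TPM in Lgr5, 10.7, 22.7 and 23.7 TPM in goblet and 15.3, 15.6 and 21.5 TPM in enterocyte libraries, with replicate 1 the lowest in each population.

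The goblet calls of Fars2, Vars2 and Wars2 rested on single libraries. Fars2 (log2 fold change -0.42, limma adjusted p = 0.0322) lost its call without Lgr5-enriched replicate 2 or 3 or any 1 goblet-enriched replicate (0.064 to 0.106). Vars2 (-0.92, limma adjusted p = 0.0459) lost it without Lgr5-enriched replicate 2 or 3, goblet-enriched replicate 1 or 2, or any 1 enterocyte-enriched replicate (0.0527 to 0.15). Wars2 (-0.47, limma adjusted p = 0.0413) lost it without any 1 of the libraries other than Lgr5-enriched replicate 1 and enterocyte-enriched replicate 1 (0.0536 to 0.145). In enterocyte against Lgr5, Hars2 (-0.36, limma adjusted p = 0.0489) lost its call without Lgr5-enriched replicate 2 or 3, goblet-enriched replicate 2 or 3, or any 1 enterocyte-enriched replicate (0.0637 to 0.167), and Vars2 (-0.97, limma adjusted p = 0.0266) without Lgr5-enriched replicate 2 or 3 or enterocyte-enriched replicate 1 or 2 (0.0686 to 0.0944). With the replicate number as a block, Aars2 was called lower in both comparisons (limma adjusted p = 0.0317 in goblet and 0.033 in enterocyte), Cars2 in enterocyte (0.0092), and Pars2 (0.0371) and Sars2 (0.0117) in goblet.

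Between goblet and enterocyte 2 mitochondrial synthetases were called higher in goblet and 1 lower, against 28.2% and 15.9% of all genes. Without enterocyte replicate 1 the counts were 1 and 1, against 22.0% and 13.2%. Ears2 (log2 fold change 0.99, limma adjusted p = 0.0132) and Yars2 (0.45, limma adjusted p = 0.0292) were called higher in goblet, and Fars2 (-0.36, limma adjusted p = 0.047), for phenylalanine, lower, with a median of 0.02 over the 16 that was -0.16 after median-of-ratios scaling. Fars2 was at 45.4, 53.5 and 52.1 TPM in Lgr5, 35.2, 38.5 and 38.5 TPM in goblet and 42.8, 53.2 and 48.8 TPM in enterocyte libraries. Its goblet libraries were the lowest, and enterocyte and Lgr5 libraries overlapped. The Yars2 call ended without any 1 goblet-enriched replicate or enterocyte-enriched replicate 1 (limma adjusted p from 0.0538 to 0.0918). The Fars2 call ended without any 1 library except Lgr5-enriched replicate 1 and enterocyte-enriched replicate 1 (0.0631 to 0.163). With the replicate number as a block 4 mitochondrial genes were called higher in goblet, Cars2 (limma adjusted p = 0.00708) and Sars2 (0.0224) joining Ears2 and Yars2, against 36.3% of all genes. With median-of-ratios scaling 1 mitochondrial gene was called higher and 3 lower in goblet, against 19.8% and 21.3% of all genes.

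Lars2, the mitochondrial leucyl-tRNA synthetase (chromosome 9, 123366927 to 123462666, plus strand), varied more between libraries than between populations. It was at 4632, 1196 and 1301 TPM in Lgr5, 319, 1076 and 989 TPM in goblet and 791, 1420.3 and 1084 TPM in enterocyte libraries, from 7058 to 187675 reads each. The highest and the lowest library were both replicate 1, of Lgr5 and of goblet. None of the comparisons passed the test (limma adjusted p = 0.0831 for goblet against Lgr5, 0.258 for enterocyte against Lgr5 and 0.427 for goblet against enterocyte). Rn45s, a transcript of ribosomal RNA, was at 49046, 4499 and 4717 TPM in Lgr5, 2356, 5181 and 3765 TPM in goblet and 3500, 6009 and 5136 TPM in enterocyte libraries. It had its highest value in the same library as Lars2, its second highest in enterocyte-enriched replicate 2 like Lars2, and its lowest in goblet-enriched replicate 1 like Lars2. The part of ribosomal RNA in the Lars2 values was not tested. Without Lars2, the 15 other mitochondrial synthetases summed to 519, 565 and 609 TPM in Lgr5, 354, 413 and 412 TPM in goblet and 336, 377 and 407 TPM in enterocyte libraries. Both differentiated populations were below all Lgr5 libraries on this sum and overlapped each other.

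**Figure D4:**
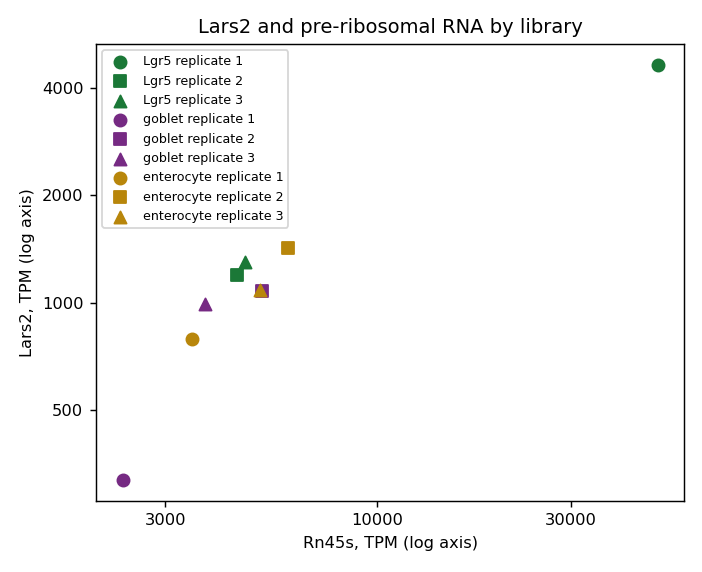
Lars2 level against Rn45s level in TPM, both on log axes, with 1 point for each of the 9 libraries, coloured by population and shaped by replicate. Lgr5-enriched replicate 1 lies at the top right (49046 TPM of Rn45s and 4632 TPM of Lars2), goblet-enriched replicate 1 at the bottom left (2356 and 319 TPM), and the other 7 libraries between them.

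The ratio of cytosolic to mitochondrial synthetase TPM for the same amino acid could be formed for 17 pairs. The pairs are not separate, since Eprs (with Ears2 and Pars2) and Fars2 (with Farsa and Farsb) each stand in 2 of them. Its goblet mean was above its Lgr5 mean in 15 pairs, with no overlap of libraries in 7 of them, and below it in 2, Rars with Rars2 (2.15 in Lgr5 and 1.97 in goblet) and Farsb with Fars2 (2.43 and 2.25). Wars was 10.7 ± 4.4 times Wars2 in Lgr5 (SD, n = 3), 38.6 ± 10.4 times in goblet and 15.5 ± 2.9 times in enterocyte libraries. Tars was 3.48 ± 0.43 times Tars2 in Lgr5, 12.6 ± 4.1 times in goblet and 5.19 ± 0.018 times in enterocyte libraries. Aars was 3.02 ± 0.82 times Aars2 in Lgr5, 7.31 ± 2.1 times in goblet and 3.09 ± 0.54 times in enterocyte libraries. For these 3 pairs all goblet ratios were above all Lgr5 ratios. Vars was 4.73 ± 1.1 times Vars2 in Lgr5, 9.06 ± 2.8 times in goblet and 2.76 ± 0.27 times in enterocyte libraries. Cars and Cars2 were nearer to each other, with ratios of 0.86 ± 0.28, 1.27 ± 0.39 and 0.77 ± 0.19, and their goblet and Lgr5 ratios overlapped. These ratios were not tested, and the counts of pairs have no share over all genes beside them. Wars, Tars and Aars were already called higher in goblet in the same libraries, so their ratios are no further test.

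Of 14 accessory genes that handle transfer RNAs beside the synthetases, 1 was called higher and 5 lower in goblet against Lgr5, where 10.7% of all genes were called higher and 23.6% lower. With the replicate number as a block 9 were called lower, against 35.4%, and with median-of-ratios scaling 2, against 12.0%. In enterocyte against Lgr5 0 were called higher and 6 lower, with and without enterocyte replicate 1. Over all genes 37.6% were called lower there, and 31.5% without that library. With median-of-ratios scaling 1 was called higher and 3 lower there, against 23.5% and 19.7% of all genes. Prorsd1, a homologue of the domain that clears mischarged proline transfer RNA, was the one called higher in goblet, at 13.5, 10.2 and 11.4 TPM in Lgr5 against 40.7, 22.1 and 20.9 TPM in goblet libraries (log2 fold change 1.13, limma adjusted p = 0.00766). Sepsecs, the last enzyme of the selenocysteine route, and Qrsl1, a subunit of the mitochondrial amidotransferase that makes glutaminyl-tRNA, fell by 0.81 and 0.80 in goblet (limma adjusted p = 0.00737 and 0.00781). Xpot, which exports transfer RNAs from the nucleus, was at 43.8, 36.7 and 44.1 TPM in Lgr5 and 13.3, 15.6 and 16.6 TPM in enterocyte libraries (log2 fold change -1.40, limma adjusted p = 0.000316).

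The products of the 6 cytosolic elongation factor genes act in the elongation step of translation. In goblet against Lgr5 0 of the 6 were called higher and 2 lower, where 23.6% of all genes were called lower. In enterocyte 5 were called lower than in Lgr5, where 37.6% of all genes were. With the replicate number as a block 5 were called lower in goblet, against 35.4%. With median-of-ratios scaling 0 were called lower in goblet and 3 in enterocyte, against 12.0% and 19.7% of all genes. Without enterocyte replicate 1 the enterocyte count was 5, against 31.5% of all genes. Of 11 mitochondrial translation factors 10 were tested, and 6 were called lower in goblet and 8 in enterocyte, with 0 higher in either. With median-of-ratios scaling 2 were called lower in goblet, against 12.0% of all genes. In enterocyte 1 was called lower and 1 higher with that scaling, against 19.7% and 23.5% of all genes. Without enterocyte replicate 1 the enterocyte count was 5 lower, against 31.5% of all genes. Tufm, the mitochondrial elongation factor that carries charged transfer RNA, was at 101, 109 and 117 TPM in Lgr5, 37.7, 56.8 and 39.1 TPM in goblet and 62.9, 70.1 and 83.4 TPM in enterocyte libraries. The populations did not overlap, goblet being lowest (log2 fold change against Lgr5 -1.29, limma adjusted p = 0.000833).

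A list of 28 genes of the amino acid response and of ATF4 was set beside the synthetases, since ATF4 is a known regulator of both. In goblet against Lgr5 12 were called higher and 2 lower, with a median of 0.51, where 10.7% of all genes were called higher and 23.6% lower. With median-of-ratios scaling 14 were called higher and 1 lower, where 14.3% of all genes were called higher and 12.0% lower. In enterocyte against Lgr5 0 were called higher and 14 lower, with a median of -0.51, where 12.0% of all genes were called higher and 37.6% lower. With median-of-ratios scaling 2 were called higher and 7 lower, where 23.5% of all genes were called higher and 19.7% lower. Leaving out enterocyte replicate 1, 1 was called higher and 11 lower, against 9.36% and 31.5%. In goblet against enterocyte 21 were called higher and 0 lower, with and without enterocyte replicate 1. Over all genes 28.2% were called higher and 15.9% lower there, and 22.0% and 13.2% without that library. These comparisons share libraries with each other and with those of the synthetases. Chac1, which degrades glutathione, stood at 4.3, 1.7 and 1.1 TPM in Lgr5 and at 42.2, 47.5 and 15.5 TPM in goblet libraries (log2 fold change 3.38, limma adjusted p = 0.00208). Pycr1, an enzyme of proline synthesis, stood at 2.2, 2.8 and 2.1 TPM in Lgr5 and at 19.1, 25.2 and 27.9 TPM in goblet libraries (2.89, limma adjusted p = 1.51e-05). Nupr1, a stress-induced chromatin protein, rose from a mean of 323 TPM to 2194 TPM (2.76, limma adjusted p = 0.00154). None of these 3 calls was lost under any alternative.

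Of the other genes of the list, Asns, Atf4 and Ddit3 were also called higher in goblet, and Phgdh and Shmt2 lower. Asns, the asparagine synthetase, was at 89.2, 55.1 and 64.5 TPM in Lgr5, 185, 112 and 128 TPM in goblet and 27.6, 38.9 and 33.4 TPM in enterocyte libraries, so that it was highest in goblet and lowest in enterocyte without overlap (goblet against Lgr5 1.01, limma adjusted p = 0.0107). Phgdh and Shmt2, which make serine and glycine, were the 2 called lower in goblet, at log2 fold changes of -1.66 and -0.87 (limma adjusted p = 0.0236 and 0.0134), and lower still in enterocyte, at -4.08 and -1.99. The Phgdh goblet call ended without Lgr5-enriched replicate 1 or 3 or goblet-enriched replicate 1 or 2 (limma adjusted p from 0.05 to 0.0795), and that of Shmt2 without Lgr5-enriched replicate 3 (0.0567). Atf4 itself was at 567, 651 and 537 TPM in Lgr5, 1124, 1093 and 941 TPM in goblet and 276, 613 and 592 TPM in enterocyte libraries. Its goblet libraries were all highest, but the call against Lgr5 (log2 fold change 0.85, limma adjusted p = 0.0423) ended without any 1 of the Lgr5-enriched or goblet-enriched libraries (0.0665 to 0.123). Atf4 and Asns were named for their role after their values had been seen. Ddit3, a further gene of the list, shares 68 exon bases on the opposite strand with Mars, and was at 69.1 TPM in Lgr5, 202 TPM in goblet and 85.2 TPM in enterocyte libraries on average.

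**Figure D5:**
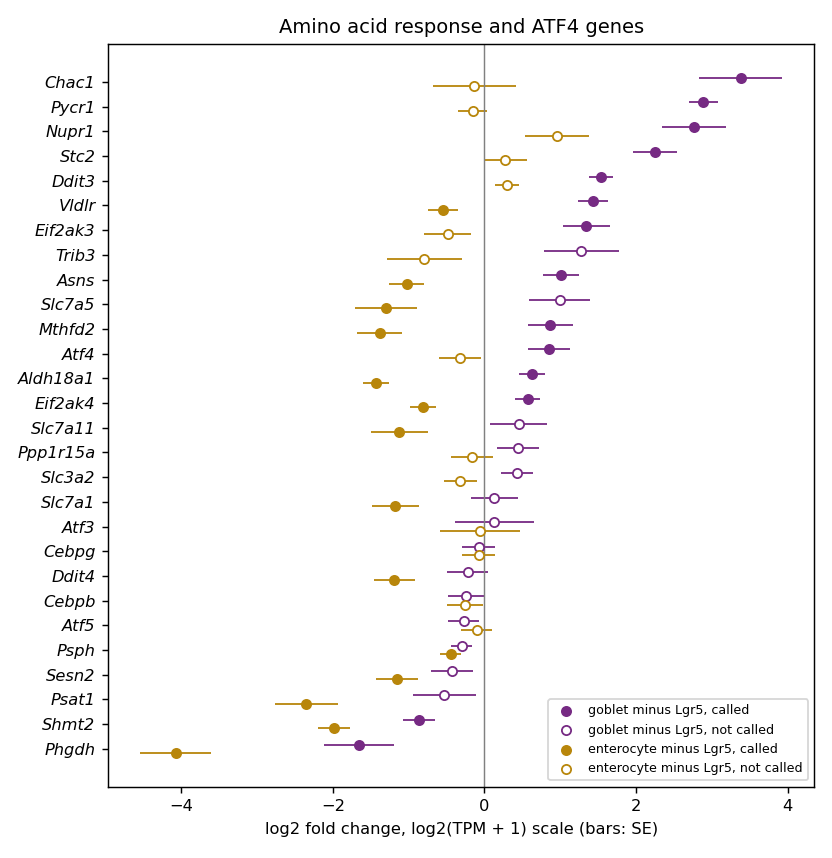
Log2 fold change (x axis, log2(TPM + 1) scale) of 28 amino acid response and ATF4 genes in the goblet-enriched (purple) and enterocyte-enriched (gold) populations against the Lgr5-enriched population. Bars are SE and filled points were called by limma. In goblet 12 are filled on the right and 2 on the left, and in enterocyte 14 are filled on the left and 0 on the right, which became 2 on the right and 7 on the left with median-of-ratios scaling.

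Interferon response genes were listed because Wars belongs to the same programme in other settings. Of 17, 0 were called higher and 2 lower in goblet against Lgr5, where 10.7% of all genes were called higher and 23.6% lower. With the replicate number as a block 1 was called higher and 7 lower, against 13.9% and 35.4% of all genes. In the enterocyte comparison with Lgr5, 4 were called higher and 0 lower, with and without enterocyte replicate 1. Over all genes 12.0% were called higher and 37.6% lower there, and 9.36% and 31.5% without that library. With median-of-ratios scaling 6 were called higher and 0 lower, against 23.5% and 19.7% of all genes. The 1 called higher in goblet under the block was Ido1, an enzyme that breaks down tryptophan, which was at 1.57, 0.466 and 0.802 TPM in Lgr5, 24.95, 2.03 and 5.03 TPM in goblet and 11.4, 0.491 and 1.18 TPM in enterocyte libraries. Every goblet library was above every Lgr5 library, and replicate 1 was highest in each population. Its log2 fold change in goblet against Lgr5 was 2.04 (limma adjusted p = 0.105, 0.00783 with the block, and 0.0493 without enterocyte replicate 1). The 2 lower in goblet were Psmb10, a subunit of the immunoproteasome (log2 fold change -1.002, limma adjusted p = 0.00821), and Irf8, a transcription factor (-0.96, limma adjusted p = 0.00199). Ifit1, an antiviral RNA-binding protein, was at 1.3, 0.2 and 1.5 TPM in Lgr5, 1.1, 0.4 and 2.6 TPM in goblet and 35.5, 5.4 and 25.4 TPM in enterocyte libraries (enterocyte against Lgr5 3.26, limma adjusted p = 0.00269).

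Of 14 MYC and growth genes 1 was called higher and 5 lower in goblet against Lgr5, where 10.7% of all genes were called higher and 23.6% lower. With median-of-ratios scaling 2 were called higher and 1 lower there, against 14.3% and 12.0% of all genes. In enterocyte against Lgr5 2 were called higher and 11 lower, with and without enterocyte replicate 1. Over all genes 12.0% were called higher and 37.6% lower there, and 9.36% and 31.5% without that library. Srm, the spermidine synthase, was the one called higher in goblet, at 64.6, 65.9 and 73.0 TPM in Lgr5, 117, 120.4 and 151 TPM in goblet and 19.6, 23.6 and 30.4 TPM in enterocyte libraries (goblet against Lgr5 0.92, limma adjusted p = 0.00411, enterocyte against Lgr5 -1.45, limma adjusted p = 0.000316). Its order of populations, goblet, Lgr5, enterocyte without overlap, was that of Tars, Aars and Cars. Cad, which starts pyrimidine synthesis, and Nop56, a ribosome assembly factor, both fell by 2.08 in enterocyte (limma adjusted p = 0.000403 and 0.000268). Genes of S phase and mitosis summed to 1484 to 2189 TPM in Lgr5, 954 to 1304 TPM in goblet and 391 to 648 TPM in enterocyte libraries, and 14 of 14 were called lower in enterocyte, with and without enterocyte replicate 1. Their part, and that of the goblet cells in the enterocyte-enriched sort, in the synthetase differences was not tested.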

How the data were processed

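RNA-seq of 9 libraries, 3 for each sorted population, was used. The kit is described in the labels' protocols as a stranded poly-A kit, and the sequencing as single-end or paired-end by library. The deposited table holds log2 values: per its own values, the log2 of the TPM from 1 TPM upwards, and the TPM less 1 for smaller levels. Back-transformed, each deposited column sums to 1000000 TPM. Cufflinks and mm10 are named in the submitters' processing notes without a version, while the sources used here give no aligner, annotation, filter or strand setting. Of the per-sample columns, 0 were left unused.

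From these values TPM were computed, and the 12888 genes that reached 1 TPM in 3 or more libraries were kept. Differences were tested, two-sided, with limma 3.58.1 in R 4.3.3 (lmFit, eBayes with trend) on log2(TPM + 1), with 1 mean per population over all 9 libraries, 6 residual and 3.21 prior degrees of freedom, and Benjamini-Hochberg adjustment over all genes. The design had expected FPKM or TPM, and TPM were found. Whole reads were recovered from the TPM steps for 18386 of 18396 genes above 0 (99.95%, tolerance 1e-06, lengths up to 20000 tried), and serve for depth and for an alternative fit with limma-voom. These reads are lower bounds, because a common factor of length and reads leaves no trace in TPM. The fits were tested on simulated data. Gene coordinates are from GENCODE M21 (mm10), and promoter windows from RefSeq (GRCm38.p6).

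Replicates were compared first: Pearson's r over log2(TPM + 1) was 0.955 to 0.983 within populations and 0.826 to 0.92 between them. The series' design text speaks of 3 independent mice, and the labels do not say that a replicate number marks 1 animal. Deviations from the population means correlated in all 9 pairs of libraries with the same number (r from 0.194 to 0.601), so the number was also fitted as a block. The library labelled enterocyte-enriched replicate 1 goes against its sex label. Xist was at 0.13 TPM there, but at 150 TPM in Lgr5-enriched replicate 1 and 110 TPM in goblet-enriched replicate 1. The replicate number, and so the block, therefore cannot be read as marking 1 animal. Since Xist was at 110 to 204 TPM in all Lgr5-enriched and goblet-enriched libraries, no other numbering matches this library to a mouse of theirs. By Xist, the 9 libraries thus go against the 3 mice of the series text. The main fit uses no pairing by animal.

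The genes named with full values are members called in at least 1 comparison with a fold of at least 1.5, the 3 most and 3 least abundant of each class, and up to 3 called genes of each other list per direction and comparison. Members called at smaller folds are named where counts are given, and Gars, Qars, Fars2, Asns, Atf4, Ddit3 and Ido1 were added after their values were seen. The members and lists were chosen with earlier results of these data known.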

Additional observations from a re-analysis of the deposited data

How the results depend on the processing

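Of 59 called member differences, 31 kept their direction and call under all 20 alternatives, and 45 of 64 called differences of other listed genes did. The replicate block ended none of either. The estimates that changed sign were the enterocyte against Lgr5 values of Hars2 (0.036 with median-of-ratios scaling and 0.0017 with quantile normalization) and Sars (0.054 with median-of-ratios scaling), and the cause was not tested. With median-of-ratios scaling 0 cytosolic genes were called lower in goblet and 8 in enterocyte against Lgr5. Mitochondrial genes were called lower in 5 (goblet) and 4 (enterocyte) and higher in 1 (enterocyte, Fars2). Over all genes that scaling gave 12.0% lower in goblet and 19.7% lower and 23.5% higher in enterocyte. Goblet against enterocyte had 1 mitochondrial gene higher and 3 lower, where 19.8% and 21.3% of all genes were. With quantile normalization 4 mitochondrial genes were called lower in goblet and 4 in enterocyte against Lgr5, where 1941 and 2887 of 12888 genes were. It gave 1 higher and 2 lower in goblet against enterocyte, where 2890 and 2379 of 12888 genes were. Array weights gave 9 cytosolic and 13 mitochondrial genes lower in goblet against Lgr5, where 5661 of 12888 genes were called lower. They gave 5 mitochondrial genes higher in goblet against enterocyte, where 4526 of 12888 genes were called higher. The replicate block gave 7 cytosolic genes lower in goblet against Lgr5, where 35.4% of all genes were. It gave 4 mitochondrial genes higher in goblet against enterocyte, where 36.3% of all genes were. Limma-voom on recovered reads called 5 mitochondrial genes lower in goblet against Lgr5, where 2479 of 12884 genes were called lower. It called 1 higher in goblet against enterocyte, where 3068 of 12884 genes were called higher. A fit of the 6 libraries compared called 1 mitochondrial gene higher and 0 lower in goblet against enterocyte (3249 and 1958 of 12888 genes). Leaving out replicate 1 of all populations called 4 higher there, where 3701 of 12512 genes were called higher. Leaving out 1 library at a time, cytosolic counts ranged from 3 to 4 higher and 2 to 4 lower in goblet against Lgr5, 12 to 17 lower in enterocyte against Lgr5 and 12 to 14 higher in goblet against enterocyte, and mitochondrial counts from 5 to 8 and 8 to 11 lower against Lgr5 and, in goblet against enterocyte, from 1 to 3 higher and 0 to 1 lower. Over all genes the fits without 1 library called 1033 to 1405 genes higher and 1557 to 3192 lower in goblet against Lgr5. In enterocyte against Lgr5 they called 3779 to 5247 lower. In goblet against enterocyte they called 2783 to 3715 higher and 1641 to 2182 lower. The rescaling without Rn45s and Lars2 was chosen after seeing the data and ended no call.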
